A study of Mus musculus with 22 samples.

Results

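Gastruloids, which mouse embryonic stem (mES) cells form when they aggregate and begin to build an embryonic body axis, were compared after Activin A and after Chiron at 96 h of culture, in wild-type cells. The comparison rests on 4 of the 22 RNA-seq libraries of the study, 2 labelled Activin A gastruloids (wt, 96 h) and 2 labelled Chiron gastruloids (wt, 96 h), chosen by their column names in the deposited count table. The 4 wild-type libraries of the same cultures at 120 h, 2 per treatment, share the statistical fit and serve to show where the 96 h difference changed with time. Other libraries of the study carry Hox-/- cells, mES cells or adherent endoderm and are not used here. Of 55141 genes in the count table, 17305 had enough counts to be tested.

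All 8 gastruloid libraries came from mES cells that the labels describe as kept in serum with LIF, 3 µM CHIR99021 and 1 µM PD0325901, so both groups had met a GSK-3 inhibitor before aggregation. The labels give the gastruloid cell type as mixed cells and state no dose or day of addition of Activin A or Chiron in the gastruloids, no cell line, and not whether the replicates are separate aggregation experiments. P-values therefore measure only the spread between these libraries, which may be technical. In such bulk RNA, fewer cells of a type and less RNA per cell cannot be told apart.

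Activin A is a ligand of the TGF-beta family that signals through the same receptors and Smad2/3 proteins as Nodal, the signal that patterns the epiblast and directs cells of the anterior primitive streak to mesendoderm and endoderm. Chiron is the GSK-3 inhibitor CHIR99021, which stabilises beta-catenin and so activates the Wnt pathway. In gastruloids a Wnt pulse is known to drive formation of a posterior pole with caudal progenitors, presomitic mesoderm and staged activation of the Hox genes, the homeobox genes that mark position along the body axis.

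Library totals at 96 h were 22505531 and 25806178 counts with Activin A and 20547464 and 28819301 counts with Chiron, and between 9108085 and 11930416 counts at 120 h. The Activin A replicates were closer to each other than the Chiron replicates: 88 of 14437 well-counted genes differed by more than 1.5-fold between the Activin A pair and 286 between the Chiron pair. In both pairs the difference ran along some of the gene lists given below. Chiron replicate 1 was above replicate 2 in 15 of 18 presomitic and somitic genes, with a median log2 difference of 0.44, and in 1 of 18 caudal progenitor genes, with a median of -0.20, against 49.8% of all genes. Activin A replicate 1 was above replicate 2 in 1 of 24 mesendoderm and endoderm genes, with a median of -0.19. It was above in 16 of 18 caudal progenitor genes (median 0.05) and 23 of 26 Hox genes (median 0.11), against 7196 of all 14437. The library labels were checked against markers, which were chosen with earlier results of these data known, so the check bears on the labels alone. In it 8 of 8 mesendoderm and endoderm markers (Eomes, Gsc, Mixl1, Lhx1, Foxa2, Sox17, Cer1 and Hhex) were higher in the Activin A libraries, where 31.3% of all tested genes were. Of 8 caudal and presomitic markers, 6 were higher in the Chiron libraries (Cdx2, Wnt3a, Tbx6, Msgn1, Hes7 and Dll1), while T and Nkx1-2 were higher in the Activin A libraries.

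At 96 h the Activin A gastruloids were high in genes of the Nodal pathway, of mesendoderm, endoderm and node, of the primed epiblast, of epithelia and of the interferon response. The Chiron gastruloids were high in Hox genes, segmentation and somite genes, and genes of retinoic acid and Notch signalling. A gene was called when edgeR's quasi-likelihood test, adjusted over all tested genes by Benjamini-Hochberg, gave an adjusted p under 0.05, and higher or lower below always means with Activin A relative to Chiron. Of the tested genes, 10655 (61.6%) were called, 5422 (31.3%) higher and 5233 (30.2%) lower. With a change of at least 2-fold, 2251 genes (13%) were higher and 1152 (6.66%) lower, and at 32-fold or more 62 were higher and 49 lower. The libraries of the 2 treatments did not overlap in 80.3% of tested genes. Because most genes were called, the counts of each list below are to be read against the 31.3% higher and 30.2% lower of all tested genes. A list near those shares does not stand apart from all genes in its counts.

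**Figure D1:**
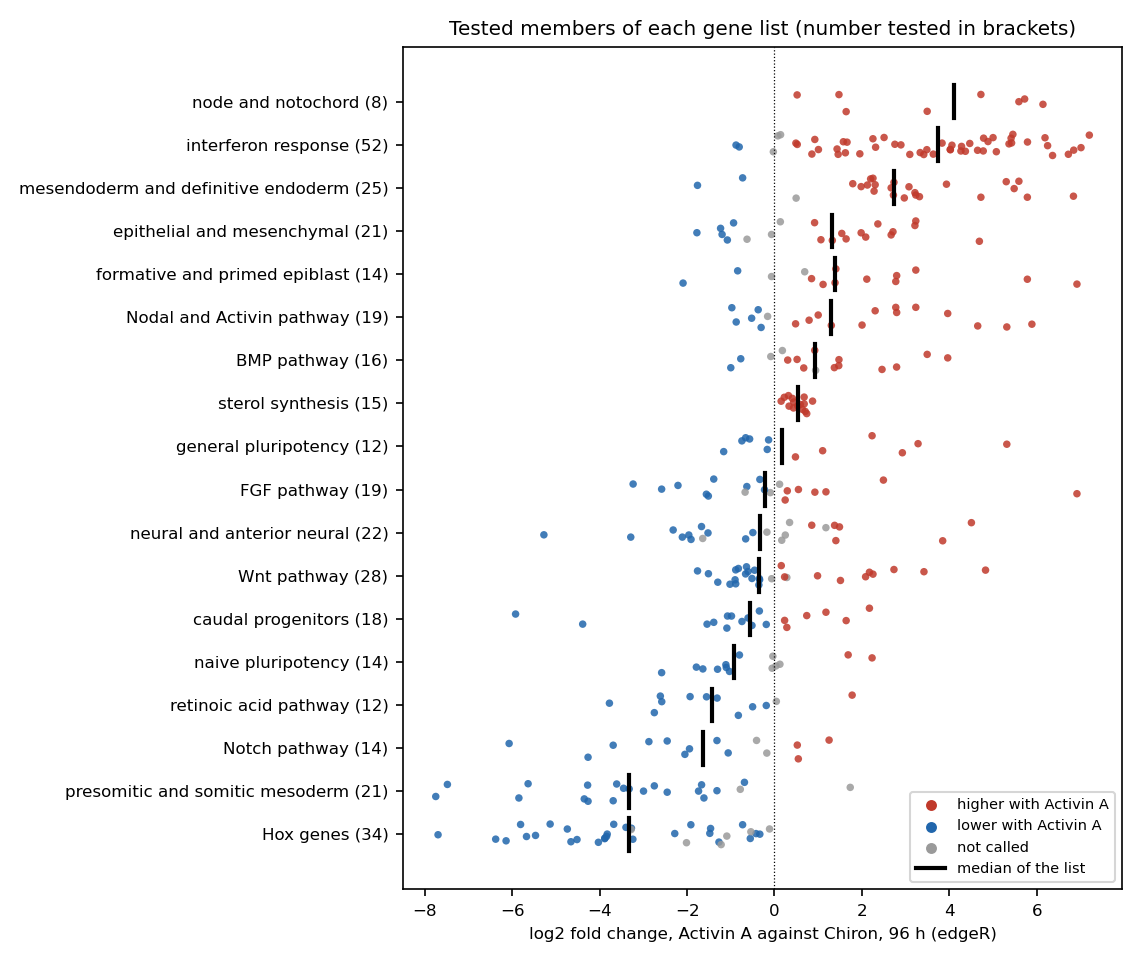
Log2 fold change of each tested member of the gene lists, Activin A against Chiron at 96 h. Points are genes (red higher, blue lower, grey not called), the short black line is the median of the list and the number tested is in brackets. The presomitic and Hox lists lie left of 0 with medians of -3.32 and -3.34, and the node, interferon and mesendoderm lists lie right of 0 with medians of 4.11, 3.73 and 2.73.

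Genes of the Nodal and Activin pathway differed by role, with a median log2 fold change of 5.6 over the 2 co-receptors, 3 over the 4 antagonists, 2 over the 3 tested ligands and 1 over the 3 feedback genes, and of -0.16 over receptors and -0.34 over effectors. Of 22 listed genes 19 were tested, 13 were higher and 5 lower, with a median log2 fold change of 1.30, where the median of all tested genes was -0.001. Summed over the list, expression was 3005 and 3061 CPM (counts per 1000000 counts of the library) with Activin A and 815 and 832 CPM with Chiron. Nodal itself (ENSMUSG00000037171, chromosome 10:61417972-61425338, mm10) stood at 117 and 117 CPM with Activin A against 12.9 and 18.6 CPM with Chiron, a log2 fold change of 2.80 ± 0.09 (SE), and both Activin A libraries lay above both Chiron libraries. The EGF-CFC co-receptor Tdgf1, also called Cripto (ENSMUSG00000032494, chromosome 9:110939603-110946158), stood at 567 and 577 CPM with Activin A against 10.8 and 16.1 CPM with Chiron, a log2 fold change of 5.32 ± 0.09 (edgeR adjusted p = 1.52e-23). Its relative Cfc1 was at 24.7 and 28.7 CPM with Activin A against 0.292 and 0.52 CPM with Chiron. Both co-receptor genes had a low level in both Chiron libraries, and the groups did not overlap. Cfc1 overlaps the antisense gene Prss40, so its counts are uncertain.

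The secreted antagonists of the pathway were all higher. Follistatin, Fst, which binds and blocks Activin (ENSMUSG00000021765, chromosome 13:114452290-114458951), was at 531 and 557 CPM with Activin A against 31.1 and 35.3 CPM with Chiron, a log2 fold change of 3.96 ± 0.07. Lefty1, a feedback inhibitor of Nodal, was at 647 and 655 CPM with Activin A against 49.3 and 81.5 CPM with Chiron, and its close copy Lefty2 at 221 and 229 CPM with Activin A against 25.4 and 36.7 CPM with Chiron. The Lefty genes are near-identical, so the split of reads between them is uncertain. Per length, mean expression with Activin A was 391.6 FPKM for Lefty1, 242 FPKM for Fst and 53.6 FPKM for Nodal. Cer1, an antagonist of Nodal, BMP and Wnt, was at 137 and 157 CPM with Activin A against 45.2 and 14.4 CPM with Chiron. Chiron replicate 1 was above replicate 2 for this gene, and both lay below the Activin A libraries.

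Receptors and Smad proteins, which carry the signal, moved little or the other way. The type I receptor gene Acvr1b was higher at 55.9 and 50.5 CPM with Activin A against 34.4 and 38.1 CPM with Chiron and the type II receptor gene Acvr2b lower at 43.1 and 41.3 CPM with Activin A against 59.7 and 56.5 CPM with Chiron, while Acvr2a was not called. Smad3 was at 50.2 and 50.3 CPM with Activin A against 100.2 and 89.5 CPM with Chiron, a log2 fold change of -0.98 ± 0.06. Smad2 and the shared partner Smad4 were also lower, by -0.37 and -0.31 on the log2 scale. Foxh1, the DNA-binding partner of Smad2/3, was higher at 154 and 138 CPM with Activin A against 55.5 and 57.9 CPM with Chiron. Among feedback genes induced by the pathway, Pmepa1 was at 43.1 and 44.1 CPM with Activin A against 1.27 and 1.94 CPM with Chiron, a log2 fold change of 4.65 ± 0.14, and Skil and Smad7 were higher by 1.00 and 0.79. The ligand Gdf3 was lower, at 3.87 and 3.84 CPM with Activin A against 5.94 and 7.46 CPM with Chiron, and Inhbb, the subunit of Activin B, was higher at 1.155 and 1.59 CPM with Activin A against 0.438 and 0.243 CPM with Chiron. Gdf1, Inhba, the subunit of Activin A, and Acvr1c held 3 counts or fewer in every library at 96 h.

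Genes of mesendoderm and definitive endoderm, the tissue that forms the gut, were higher in 22 of 25 listed genes, lower in 2 and not called in 1, with a median log2 fold change of 2.73. Eomes, a T-box factor needed for definitive endoderm (ENSMUSG00000032446, chromosome 9:118478212-118486132), was at 167 and 178 CPM with Activin A against 1.46 and 1.42 CPM with Chiron, a log2 fold change of 6.84 ± 0.11 (edgeR adjusted p = 9.53e-24). It overlaps the antisense gene Gm33460, so its counts are uncertain. Gsc, an organizer homeobox gene, was at 55.8 and 60.02 CPM with Activin A against 0.973 and 1.42 CPM with Chiron. Both were below 1.5 CPM in both Chiron libraries and did not overlap between the groups. Mixl1, a streak homeobox gene, and Lhx1, a LIM factor of the anterior streak, were higher from a clear Chiron level, at 235 and 225 CPM with Activin A against 20.1 and 23.8 CPM with Chiron and 200.04 and 213 CPM with Activin A against 51.5 and 39.8 CPM with Chiron. Mesp1, a factor of nascent mesoderm that includes heart precursors, was lower, at 1.96 and 2.44 CPM with Activin A against 8.42 and 6.18 CPM with Chiron.

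The endoderm factors followed: Foxa2, a pioneer factor of endoderm and node, was at 75.8 and 85.9 CPM with Activin A against 1.51 and 1.67 CPM with Chiron, and Sox17, which specifies endoderm, at 56.7 and 65.3 CPM with Activin A against 1.17 and 1.7 CPM with Chiron. Gata6 and Gata4, zinc-finger factors of endoderm and heart, were at 48.1 and 50.4 CPM with Activin A against 3.11 and 3.05 CPM with Chiron and 9.82 and 10.9 CPM with Activin A against 1.75 and 2.46 CPM with Chiron. Hhex, a homeobox factor of anterior endoderm, was at 23.3 and 23.9 CPM with Activin A against 5.89 and 7.04 CPM with Chiron. These groups did not overlap. Hnf4a, a factor of later gut and liver, was at 0.578 and 0.388 CPM with Activin A against 0.0973 and 0.486 CPM with Chiron; the libraries overlapped and it was not called, although without Chiron replicate 2 it was called higher, by 2.17 on the log2 scale. Sox17 and Gata6 overlap antisense genes and are uncertain. Cxcr4, a chemokine receptor used to sort definitive endoderm and also found in mesoderm, was lower, at 59.5 and 67.3 CPM with Activin A against 106 and 96 CPM with Chiron. Trh, the precursor of thyrotropin-releasing hormone, was higher, at 533 and 637 CPM with Activin A against 95.9 and 134 CPM with Chiron.

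All 8 node and notochord genes, which mark the midline organizer, were higher (median log2 fold change 4.11). Noto, a notochord homeobox gene, was at 17 and 19.7 CPM with Activin A against 0.0973 and 0.347 CPM with Chiron, and Foxj1, the regulator of motile cilia, at 23.5 and 30.7 CPM with Activin A against 0.438 and 0.52 CPM with Chiron. Shh, the midline signal, was low in absolute terms at 2 and 2.79 CPM with Activin A against 0 and 0.139 CPM with Chiron. Chrd, a secreted BMP antagonist of the organizer, was at 54.5 and 62.9 CPM with Activin A against 4.48 and 5.38 CPM with Chiron. Pkd1l1, a polycystin family gene of the node outside the list, was at 44.3 and 49.3 CPM with Activin A against 0.438 and 0.52 CPM with Chiron, a log2 fold change of 6.51 ± 0.15. In these genes the Chiron libraries were near or below 1 CPM except for Chrd and T. Chrd overlaps Thpo and Shh overlaps 2 antisense genes.

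Epithelial genes were higher together while mesenchymal genes were mixed. All 11 epithelial genes were higher, with a median log2 fold change of 2.37. Cdh1, which encodes E-cadherin, was at 408 and 431 CPM with Activin A against 87.2 and 101 CPM with Chiron, and Epcam, an epithelial adhesion molecule, at 131 and 139.6 CPM with Activin A against 30.3 and 35 CPM with Chiron. The keratin genes Krt8 and Krt18 were at 160.4 and 187 CPM with Activin A against 15.5 and 19.5 CPM with Chiron and 45.6 and 52.1 CPM with Activin A against 4.43 and 5.52 CPM with Chiron. The tight junction genes Cldn6 and Cldn7 were at 142 and 167 CPM with Activin A against 22.7 and 23.8 CPM with Chiron and 32.8 and 35 CPM with Activin A against 1.02 and 1.42 CPM with Chiron, and Esrp1, an epithelial splicing factor, at 94.4 and 103 CPM with Activin A against 16.8 and 19.6 CPM with Chiron. Each of these lay above its Chiron libraries without overlap. Of 10 mesenchymal genes 2 were higher (Vim and Cdh11), 5 lower and 3 not called. The transcription factors Zeb1, Zeb2 and Snai1, repressors of E-cadherin, were lower by -1.78, -1.08 and -1.20 on the log2 scale. Cdh2, which encodes N-cadherin, overlapped between the groups and was not called.

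The interferon response, the set of antiviral genes switched on when interferon receptors activate a transcription factor complex that includes Stat2 and Irf9, was high in the Activin A libraries. That complex binds the interferon-stimulated response element, whose core is read here as the letters GAAA, any 2 bases, GAAA again and then CT. The list of 56 such genes was drawn up after leading genes of this comparison had been seen, so its counts are a description. Within 250 bases before the start site, 44 list genes could be matched to a RefSeq promoter (GRCm38.p6), and 9 of them (20.5%) held the core on either strand, against 69 of all 27025 genes in the promoter table (0.255%) over windows of the same length. All 9 were called higher, as were 28 matched genes without it. The shorter form without the CT, which includes every match of the longer one, was in 16 list genes (36.4%) and in 3.46% of all genes, and 15 of those 16 genes were higher. A match is a description of these letters and not a shown binding site. Windows of 4 of the 9 genes that hold no annotated exon are printed 5′ to 3′ on the gene's strand, with the core in capitals, because they belong to genes whose values follow. The Ifit3 window is chr19:34583279-34583528 on the plus strand, that of Trim30a chr7:104465194-104465443, of Oas1a chr5:120907526-120907775 and of Bst2 chr8:71537473-71537722, the last 3 on the minus strand.
Ifit3: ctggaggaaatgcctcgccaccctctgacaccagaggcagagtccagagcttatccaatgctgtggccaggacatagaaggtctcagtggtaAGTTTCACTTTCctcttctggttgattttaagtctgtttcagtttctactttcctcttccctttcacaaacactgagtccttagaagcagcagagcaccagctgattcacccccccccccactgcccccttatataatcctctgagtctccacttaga
Trim30a: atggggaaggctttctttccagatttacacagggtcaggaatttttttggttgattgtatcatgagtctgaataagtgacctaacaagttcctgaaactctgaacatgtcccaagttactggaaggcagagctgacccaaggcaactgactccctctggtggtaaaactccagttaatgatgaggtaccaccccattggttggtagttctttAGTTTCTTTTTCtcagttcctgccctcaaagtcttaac
Oas1a: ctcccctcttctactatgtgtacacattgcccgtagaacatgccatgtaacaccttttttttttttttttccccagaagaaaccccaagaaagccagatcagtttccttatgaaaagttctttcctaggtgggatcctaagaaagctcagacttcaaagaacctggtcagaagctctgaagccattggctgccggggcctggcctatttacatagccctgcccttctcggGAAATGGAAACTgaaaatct
Bst2: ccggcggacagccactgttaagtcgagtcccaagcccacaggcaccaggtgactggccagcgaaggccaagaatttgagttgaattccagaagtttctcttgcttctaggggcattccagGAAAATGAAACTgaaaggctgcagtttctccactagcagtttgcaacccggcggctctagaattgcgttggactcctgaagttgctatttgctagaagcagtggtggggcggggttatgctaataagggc

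In these windows the match lies 158 bases before the start of Ifit3, 38 before Trim30a, 20 before Oas1a and 130 before Bst2, and in Ifit3 and Trim30a it is on the opposite strand, so the capitals there are the reverse complement. The 4 genes were at very low or low levels with Chiron and higher with Activin A. Trim30a, an antiviral TRIM protein gene, was at 14.5 and 13.9 CPM with Activin A against 0.195 and 0.0694 CPM with Chiron, a log2 fold change of 6.72 ± 0.27. Bst2, which encodes tetherin, a protein that holds virus particles at the cell surface, was at 135 and 126 CPM with Activin A against 9.93 and 13.1 CPM with Chiron. Oas1a, an oligoadenylate synthetase gene, was at 22.3 and 20.7 CPM with Activin A against 0.973 and 2.15 CPM with Chiron. Ifit3, of the antiviral Ifit family, was at 4.4 and 3.99 CPM with Activin A against 0.0487 and 0 CPM with Chiron, with both Chiron libraries at 3 counts or fewer, so it was at least 33.5-fold higher.

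Of the 56 interferon genes 52 were tested, and 47 were higher, 2 lower (Ifit2 and Ifnar2) and 3 not called (Dhx58, B2m and Ifnar1), where 31.3% of all tested genes were higher. Of the 52, 43 were at least 2-fold higher, where 13% of all tested genes were. The median log2 fold change was 3.73, or 3.72 when genes whose Chiron libraries were at 3 counts or fewer entered at their lower bound. Their summed level was 2061 and 1975 CPM with Activin A and 438 and 461 CPM with Chiron.

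Transcription factors of the response were higher. Stat2 was at 32.6 and 32.5 CPM with Activin A against 11 and 11.7 CPM with Chiron and Irf9 at 37 and 37.2 CPM with Activin A against 10.7 and 11.7 CPM with Chiron, both of the complex named above. Irf1, a related factor, was at 117 and 119.9 CPM with Activin A against 21.4 and 24.1 CPM with Chiron, and Irf7, which drives interferon genes, at 3.24 and 3.6 CPM with Activin A against 0.146 and 0.139 CPM with Chiron. Irf9 overlaps another gene on the same strand and is uncertain. Irf7 was low in every library, and in none of these 4 did the groups overlap.

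The interferon-inducible GTPases, which act against pathogens inside cells, included 2 of the 8 higher genes with the smallest p, Irgm1 and Irgm2. Irgm1 (ENSMUSG00000046879, chromosome 11:48861968-48871683) was at 149 and 148 CPM with Activin A against 4.48 and 5.66 CPM with Chiron, a log2 fold change of 4.78 ± 0.08 (edgeR adjusted p = 2.84e-23). Irgm2 was at 132 and 126 CPM with Activin A against 3.7 and 3.96 CPM with Chiron and Igtp at 84.8 and 76.9 CPM with Activin A against 2.19 and 2.36 CPM with Chiron; these neighbours overlap each other, so the split of reads between them is uncertain. Gbp2, a guanylate-binding protein gene, was at 66.7 and 62.7 CPM with Activin A against 1.07 and 1.15 CPM with Chiron. In each the 2 Activin A libraries were close together and far above both Chiron libraries.

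Among antiviral effectors 24 of 25 tested were higher. Ifit1, which binds foreign RNA (ENSMUSG00000034459, chromosome 19:34640871-34650009), was at 23.7 and 21.8 CPM with Activin A against 0.146 and 0.208 CPM with Chiron, a log2 fold change of 6.85 ± 0.23, while its relative Ifit2 was lower, at 4.18 and 4.18 CPM with Activin A against 7.69 and 6.45 CPM with Chiron. Isg15, a ubiquitin-like protein gene, was at 49.8 and 46.7 CPM with Activin A against 1.22 and 1.8 CPM with Chiron, Oasl2 at 81.6 and 76.8 CPM with Activin A against 1.36 and 2.05 CPM with Chiron, and Rtp4, an interferon-induced transmembrane protein gene, at 30.6 and 29.3 CPM with Activin A against 0.535 and 0.278 CPM with Chiron. Usp18, which removes Isg15 from proteins, was at 40.8 and 39.99 CPM with Activin A against 1.36 and 1.67 CPM with Chiron, and Parp9 at 81.5 and 78.8 CPM with Activin A against 4.43 and 4.72 CPM with Chiron. Zbp1, a sensor of nucleic acids, was at 3.69 and 3.84 CPM with Activin A against 0.0487 and 0.0347 CPM with Chiron, at least 30.1-fold higher, and Ifih1, the sensor Mda5, at 12 and 12.9 CPM with Activin A against 0.633 and 0.59 CPM with Chiron. Xaf1 and Mx2 were at 12.1 and 11.6 CPM with Activin A against 0 and 0.139 CPM with Chiron and 30.1 and 30.3 CPM with Activin A against 0.341 and 0.347 CPM with Chiron; the annotation gives Mx2 as a polymorphic pseudogene. Except for Ifit2, these genes were below about 5 CPM in both Chiron libraries.

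Antigen presentation and receptor genes were less uniform. The immunoproteasome genes Psmb8 and Psmb9 were at 43.2 and 45.1 CPM with Activin A against 1.22 and 1.77 CPM with Chiron and 17.4 and 14.5 CPM with Activin A against 2.34 and 3.85 CPM with Chiron. Tap1, a peptide transporter gene that overlaps Psmb9, was at 59.1 and 57.5 CPM with Activin A against 23.8 and 31.2 CPM with Chiron. B2m, the light chain of MHC class I, was at 30.8 and 31.6 CPM with Activin A against 27.9 and 28.7 CPM with Chiron and not called. The interferon receptor genes differed from each other: Ifnar1 was not called, Ifnar2 was lower at 10.3 and 11.5 CPM with Activin A against 21.2 and 17.7 CPM with Chiron, and Ifngr1 was higher at 12.9 and 14 CPM with Activin A against 4.43 and 5.07 CPM with Chiron. Ifnb1, the interferon beta gene, had no count in any library at 96 h.

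**Figure D2:**
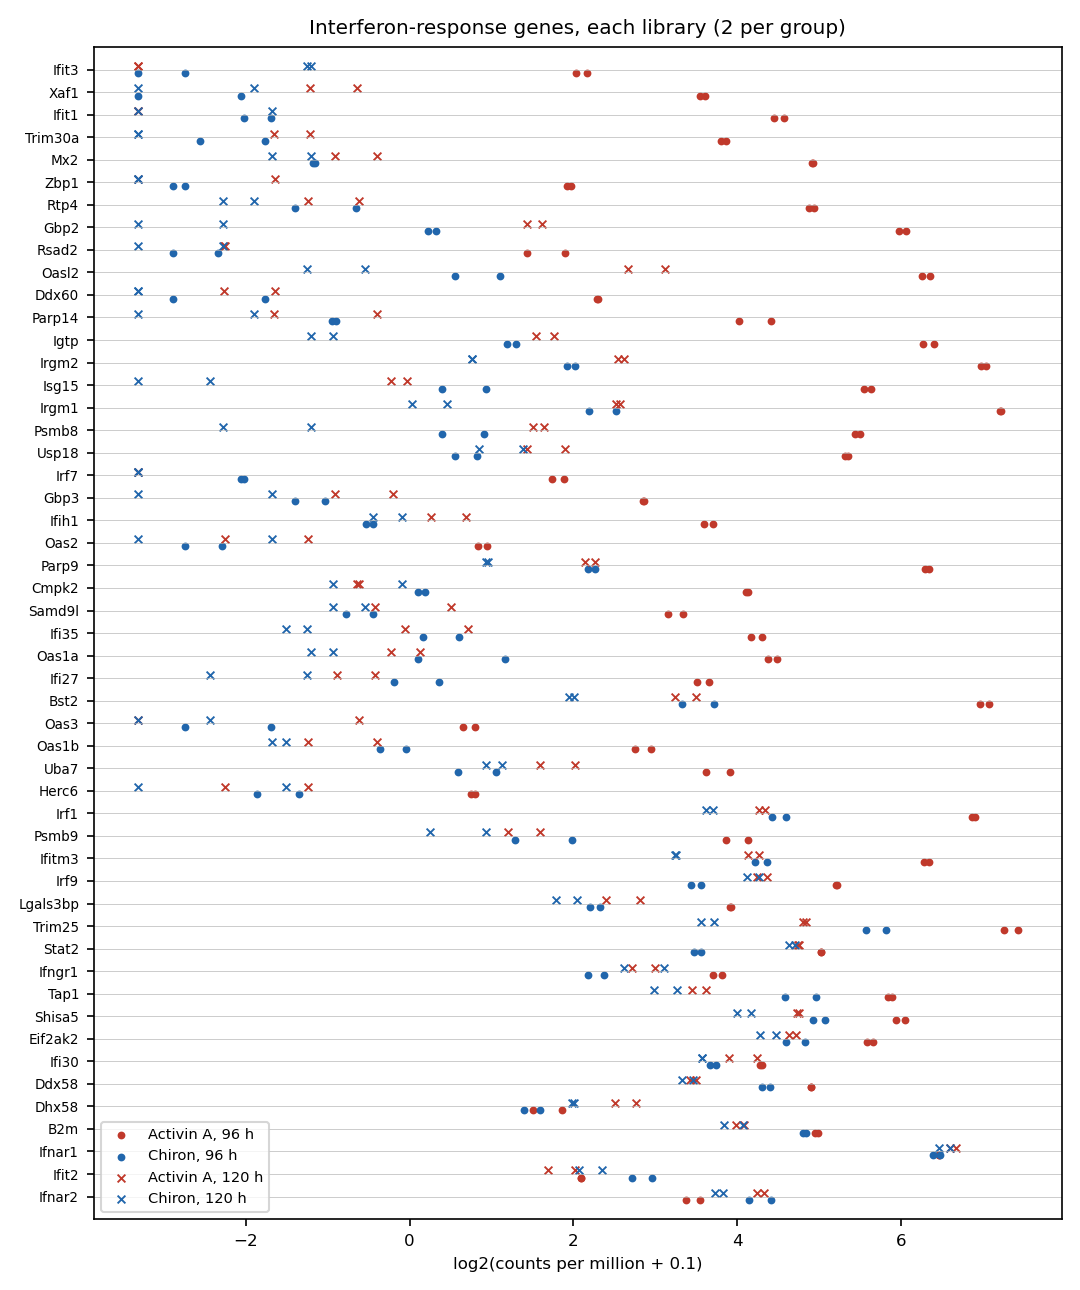
Level of 51 tested interferon-response genes in every library, as log2(CPM + 0.1), for both treatments at 96 h and 120 h (2 libraries per group). The list's summed level with Activin A was 2061 and 1975 CPM at 96 h and 426 and 436 CPM at 120 h.

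Pluripotency genes separated by state: genes of the primed epiblast were higher, several naive genes lower. The naive state is that of the preimplantation epiblast and the primed state that of the epiblast before gastrulation. Of 14 naive genes 2 were higher, 8 lower and 4 not called, with a median log2 fold change of -0.92. The summed level of the naive list was not lower, at 340 and 319 CPM with Activin A and 275 and 332 CPM with Chiron. Of 12 general pluripotency genes 6 were higher and 6 lower, with a median of 0.17. Of 14 formative and primed genes 10 were higher, 2 lower and 2 not called, with a median of 1.39. The 4 signal genes of that list, all higher, were Fgf5, Nodal, Lefty1 and Lefty2. All but Fgf5 are already counted among the Nodal and Activin pathway genes, so the lists are not independent. Of the 7 primed factors alone, 5 were higher, 1 was lower and 1 was not called, also with a median of 1.39. The shared pluripotency factor Pou5f1, or Oct4 (ENSMUSG00000024406, chromosome 17:35506018-35510772), was at 831 and 818 CPM with Activin A against 88.3 and 118 CPM with Chiron, a log2 fold change of 2.93 ± 0.08, with an overlapping antisense gene. Nanog, on the naive list, was at 109 and 107 CPM with Activin A against 18.8 and 24.8 CPM with Chiron. Sox2 was lower, at 32.7 and 30.4 CPM with Activin A against 43.1 and 51.7 CPM with Chiron. The RNA-binding L1td1 gene was higher, at 160.3 and 162 CPM with Activin A against 13 and 18.1 CPM with Chiron.

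The primed epiblast ligand gene Fgf5 (ENSMUSG00000029337, chromosome 5:98254184-98277030) was at 127 and 137 CPM with Activin A against 1.17 and 0.937 CPM with Chiron, a log2 fold change of 6.92 ± 0.11 (edgeR adjusted p = 9.53e-24). Otx2, a homeobox factor of the primed epiblast and later of the head, was at 94.6 and 113 CPM with Activin A against 1.17 and 2.26 CPM with Chiron, and Pou3f1 at 13.8 and 12.9 CPM with Activin A against 2.73 and 3.12 CPM with Chiron. Otx2 overlaps 2 other genes and is uncertain. The methyltransferase gene Dnmt3b was higher, at 441 and 451 CPM with Activin A against 190.4 and 205 CPM with Chiron, Dnmt3a was not called, and the cofactor gene Dnmt3l was lower, at 1.64 and 1.4 CPM with Activin A against 4.38 and 7.7 CPM with Chiron. The naive factors Esrrb, at 9.73 and 7.6 CPM with Activin A against 14.5 and 18.9 CPM with Chiron, and Zfp42, at 4.22 and 4.69 CPM with Activin A against 7.3 and 10.8 CPM with Chiron, were lower, and Klf4 was not called. In the Chiron pair replicate 1 was above replicate 2 in 2 of 12 well-counted naive genes. No naive factor other than Nanog and Klf5 was higher with Activin A. Of 11 primordial germ cell genes 6 were higher, among them Prdm1 at 27.3 and 29.3 CPM with Activin A against 1.22 and 1.11 CPM with Chiron, Tfap2c at 23.9 and 24.2 CPM with Activin A against 9.15 and 8.95 CPM with Chiron and Dnd1 at 49.6 and 47.1 CPM with Activin A against 3.16 and 3.99 CPM with Chiron; these also serve other tissues, and the germ cell genes Prdm14, Nanos3 and Ddx4 were not called, with Dazl lower.

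Hox genes of all 4 clusters were lower. Of 39 genes 34 were tested, 28 were lower, 6 not called and none higher, where 30.2% of all tested genes were lower and 31.3% higher. The median log2 fold change was -3.34, and the summed level was 660 and 625 CPM with Activin A and 1953 and 1922 CPM with Chiron. The difference varied along the clusters, in which genes numbered from 1 at the anterior end to 13 at the posterior end are activated in order.

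Anterior Hox genes, paralogue groups 1 to 3, were expressed in both cultures. Hoxb1 was at 307 and 289.6 CPM with Activin A against 297 and 319.8 CPM with Chiron; its libraries overlapped and it was not called, although it was called lower, by -0.13 on the log2 scale, without Chiron replicate 1. Hoxb2 was at 90.2 and 86 CPM with Activin A against 109 and 117 CPM with Chiron, lower by -0.42 on the log2 scale. Hoxb3, the next gene of the B cluster, was at 12.7 and 12.1 CPM with Activin A against 185 and 165 CPM with Chiron, a log2 fold change of -3.88 ± 0.07. The median of the 8 anterior genes was -1, and that of the 15 central genes, groups 4 to 8, was -4.03.

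Several central genes and Hoxb9 were abundant with Chiron and scarce with Activin A. Hoxb9 (ENSMUSG00000020875, chromosome 11:96271457-96276595) had the smallest p of the comparison, at 3.87 and 3.53 CPM with Activin A against 252 and 247 CPM with Chiron, a log2 fold change of -6.14 ± 0.08 (edgeR adjusted p = 1.45e-25). Hoxc8 (ENSMUSG00000001657, chromosome 15:102990607-102994111) was at 0.444 and 0.426 CPM with Activin A against 86.9 and 88.7 CPM with Chiron, a log2 fold change of -7.70 ± 0.12. Hoxb8 was at 3.38 and 2.94 CPM with Activin A against 156 and 153 CPM with Chiron and Hoxc6 at 0.311 and 0.233 CPM with Activin A against 22.6 and 21.5 CPM with Chiron. Here the 2 Chiron libraries were close together and the Activin A libraries below 4 CPM. Hoxd4 was at 3.78 and 2.98 CPM with Activin A against 84.2 and 78.6 CPM with Chiron, with the overlapping Hoxd3 at 9.33 and 7.91 CPM with Activin A against 90.3 and 66.1 CPM with Chiron. The noncoding RNAs of the clusters moved in the same direction: Hoxaas3, antisense to Hoxa3 and Hoxa7 and so uncertain, was at 6.49 and 6.67 CPM with Activin A against 215 and 234 CPM with Chiron, and Hoxb5os, antisense to Hoxb5, at 0.0444 and 0.194 CPM with Activin A against 58.7 and 55.4 CPM with Chiron.

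Posterior genes, groups 9 to 13 and so including Hoxb9, summed to 10.4 and 10.2 CPM with Activin A and 323 and 332 CPM with Chiron. Of 11 tested 7 were lower and 4 not called, with a median log2 fold change of -3.28, or -2.7 with genes at 3 counts or fewer at their bound. Hoxa9 was at 1.64 and 1.12 CPM with Activin A against 18.9 and 18.8 CPM with Chiron and Hoxd9 at 3.69 and 3.49 CPM with Activin A against 42.8 and 54.1 CPM with Chiron. Hoxa10 was at 0.311 and 0.388 CPM with Activin A against 0.973 and 0.937 CPM with Chiron and Hoxd13 at 0.4 and 0.62 CPM with Activin A against 1.31 and 1.42 CPM with Chiron, both lower and both below 1.5 CPM in every library. Hoxc11, Hoxc12, Hoxd10, Hoxd11 and Hoxd12 held 3 counts or fewer in each library at 96 h, so no fold change is given for them.

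**Figure D3:**
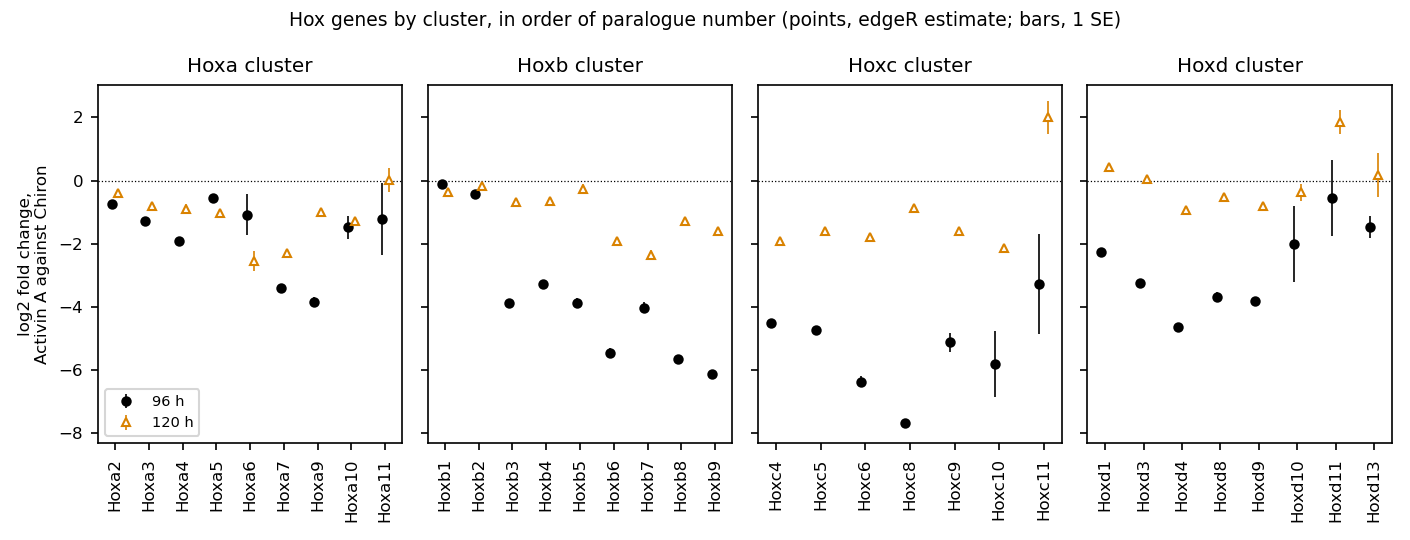
Log2 fold change of 33 tested Hox genes by cluster in order of paralogue number, Activin A against Chiron, at 96 h (filled) and 120 h (open); points are edgeR estimates and bars are SE. At 96 h Hoxb1 and Hoxb2 lie near 0 and Hoxc8 lowest at -7.70, and the list median is -3.34 at 96 h and -0.84 at 120 h.

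Genes of presomitic mesoderm and somites, the tissue that segments into vertebra and muscle precursors, were lower in 19 of 21 genes and higher in none, with a median log2 fold change of -3.32. Dll1, the Notch ligand of presomitic mesoderm (ENSMUSG00000014773, chromosome 17:15367354-15376872), was at 46.2 and 43.9 CPM with Activin A against 892 and 767 CPM with Chiron, a log2 fold change of -4.27 ± 0.07 (edgeR adjusted p = 6.85e-24), with an antisense gene overlapping it. Tbx6, a T-box factor that commits cells to presomitic mesoderm, was at 42.3 and 37.4 CPM with Activin A against 398 and 366 CPM with Chiron. Msgn1, its partner in that step, was closer between the groups, at 77.2 and 72.9 CPM with Activin A against 110.3 and 121 CPM with Chiron. Genes of the early presomitic state were thus present with Activin A at a lower level.

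The median was -3.32 over the 7 presomitic genes, -5.64 over the 3 segmentation genes and -3 over the 11 somite genes, and several segmentation and somite genes also differed between the Chiron replicates. Mesp2, which sets segment borders, was at 0.889 and 0.698 CPM with Activin A against 49.7 and 27.2 CPM with Chiron. Ripply2, which ends that step, was at 0.0889 and 0 CPM with Activin A against 13.8 and 6.87 CPM with Chiron, at least 82.7-fold lower. Foxc2 (ENSMUSG00000046714, chromosome 8:121116171-121118895) was at 0.533 and 0.465 CPM with Activin A against 109 and 65.5 CPM with Chiron, a log2 fold change of -7.48 ± 0.27, and Foxc1 at 5.51 and 6.63 CPM with Activin A against 138 and 102 CPM with Chiron; both are forkhead factors of paraxial mesoderm. Meox1, a somite homeobox gene, was at 5.24 and 6.01 CPM with Activin A against 88.3 and 46.2 CPM with Chiron, and Tbx18 at 0.0444 and 0.0775 CPM with Activin A against 5.6 and 2.43 CPM with Chiron, at least 32.2-fold lower. In each, Chiron replicate 1 was above replicate 2 and both were above the Activin A libraries. Without Chiron replicate 1, 18 of the 21 genes were lower, and without Chiron replicate 2, 20. Ripply1 and Pax1 were not called.

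Notch signalling genes overlapped this group, since the segmentation clock runs on Notch. Of 14 genes 9 were lower, 3 higher and 2 not called, with a median of -1.63. The clock genes Hes7 and Lfng were at 41.1 and 36.9 CPM with Activin A against 209.6 and 199 CPM with Chiron and 8.8 and 10.4 CPM with Activin A against 132 and 108 CPM with Chiron, and the Notch target gene Nrarp at 35.5 and 35.2 CPM with Activin A against 266 and 231 CPM with Chiron. Hes5, a Notch target of neural progenitors, was at 0.578 and 0.194 CPM with Activin A against 23.7 and 25.2 CPM with Chiron, a log2 fold change of -6.07 ± 0.19. The receptor gene Notch1 was at 86.3 and 77.2 CPM with Activin A against 339 and 264 CPM with Chiron. Jag1, Notch3 and Hes1 were higher, by 1.25, 0.55 and 0.52 on the log2 scale.

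Caudal progenitor genes, of the cells that extend the body axis, were divided. Of 18 genes 6 were higher and 12 lower, with a median of -0.56, where 31.3% of all tested genes were higher and 30.2% lower. T, or Brachyury, the T-box factor of streak, notochord and tail bud (ENSMUSG00000062327, chromosome 17:8434423-8442496), had the largest difference in mean CPM among genes at least 2-fold higher, from 507 and 556 CPM with Chiron to 1769 and 1691 CPM with Activin A, a log2 fold change of 1.64 ± 0.06. Nkx1-2 was at 555 and 523 CPM with Activin A against 379.9 and 467 CPM with Chiron and Evx1 at 131 and 122 CPM with Activin A against 63.9 and 81 CPM with Chiron, both higher and both overlapping an antisense gene. The log2 fold change of Nkx1-2 was 0.28, 0.18 without Chiron replicate 1 and 0.47 without Chiron replicate 2, and DESeq2 did not call it. Cdx2 and Cdx1, caudal homeobox factors that activate Hox genes, were lower at 248 and 243 CPM with Activin A against 359 and 426 CPM with Chiron and 209.9 and 184 CPM with Activin A against 369 and 425 CPM with Chiron, and the third member, Cdx4, was at 2.27 and 1.51 CPM with Activin A against 107 and 110.2 CPM with Chiron, a log2 fold change of -5.92 ± 0.11. Epha5, a receptor kinase gene, was at 0.933 and 0.736 CPM with Activin A against 16.5 and 17 CPM with Chiron. The 3 Cdx genes therefore differed in size of change but not in direction.

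Wnt pathway genes also went both ways, 10 higher, 16 lower and 2 not called of 28, with a median of -0.35. The share of all tested genes was 31.3% higher and 30.2% lower. Among ligands Wnt3, needed for the primitive streak, was at 40.4 and 40.4 CPM with Activin A against 1.07 and 1.56 CPM with Chiron, a log2 fold change of 4.83 ± 0.14, and Wnt8a at 246 and 239 CPM with Activin A against 46.8 and 55.7 CPM with Chiron. Wnt3a and Wnt5a were lower, at 69.8 and 67.2 CPM with Activin A against 89.3 and 109 CPM with Chiron and 82 and 75.4 CPM with Activin A against 146 and 133 CPM with Chiron. Of 10 targets and feedback genes 7 were lower: Axin2, a general readout of beta-catenin, was at 132 and 124 CPM with Activin A against 218 and 217 CPM with Chiron, Lef1 at 122 and 123 CPM with Activin A against 428 and 365 CPM with Chiron, and the extracellular inhibitor gene Notum at 26.8 and 28.8 CPM with Activin A against 62 and 68.7 CPM with Chiron. Tcf7 was not called. The secreted antagonist gene Dkk1 was higher, at 68.3 and 72.7 CPM with Activin A against 12.6 and 15.4 CPM with Chiron, and the receptor gene Fzd5 at 69.3 and 83.2 CPM with Activin A against 6.28 and 7.25 CPM with Chiron. Axin2, Lef1 and Notum overlap antisense genes.

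FGF and BMP ligands differed by gene. Of 8 FGF ligands 3 were higher (Fgf5, Fgf8 and Fgf10) and 5 lower. Fgf8, the streak and tail bud ligand, was at 228 and 226 CPM with Activin A against 89.2 and 103 CPM with Chiron, while Fgf4 was at 21.5 and 18.1 CPM with Activin A against 109.99 and 116 CPM with Chiron and Fgf3 at 15.4 and 14.8 CPM with Activin A against 60.5 and 72.3 CPM with Chiron. The FGF target gene Etv4 was lower, at 108 and 109.7 CPM with Activin A against 293 and 319 CPM with Chiron, and Dusp6 and Spry2, also targets, differed by -0.33 and 0.24 on the log2 scale. All 4 BMP ligands were higher, with Bmp4 at 23.9 and 19.4 CPM with Activin A against 3.75 and 3.75 CPM with Chiron. Of 5 BMP antagonists 4 were higher and Grem1 was not called. Those higher include Fst and Chrd, already counted as an Activin antagonist and a node gene. The BMP targets Id3 and Id2 differed in sign, at 85.8 and 87.6 CPM with Activin A against 28.4 and 35.3 CPM with Chiron and 15.8 and 17 CPM with Activin A against 25.9 and 27.7 CPM with Chiron, and Id1 was not called.

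Retinoic acid genes, which make, break down or bind the vitamin A signal of trunk and hindbrain, were lower in 10 of 12 tested genes. Aldh1a2, the main synthesis enzyme of the embryonic trunk, was at 54.1 and 55.8 CPM with Activin A against 408 and 301 CPM with Chiron. Crabp1, a cellular binding protein (ENSMUSG00000032291, chromosome 9:54764748-54773110), was at 25.1 and 23.3 CPM with Activin A against 351 and 285 CPM with Chiron, a log2 fold change of -3.78 ± 0.08. Stra6, a retinol transport receptor, was at 15.1 and 15.2 CPM with Activin A against 89.2 and 84.2 CPM with Chiron, and the receptor gene Rarb, itself a retinoic acid target, at 0.933 and 1.47 CPM with Activin A against 8.86 and 5.83 CPM with Chiron. Rdh10, which carries out the earlier synthesis step, was higher, at 62.9 and 58.6 CPM with Activin A against 15.9 and 17.9 CPM with Chiron, and Rara was not called. The Aldh1a2 and Crabp1 libraries did not overlap, with Chiron replicate 1 the highest.

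Some of the largest differences lay outside these groups. The kinase gene Pim2 (ENSMUSG00000031155, chromosome X:7878262-7883432) had the smallest p among higher genes, tied with Fgf5 and Eomes after adjustment, at 544 and 520.4 CPM with Activin A against 23 and 28.8 CPM with Chiron, a log2 fold change of 4.28 ± 0.07 (edgeR adjusted p = 9.53e-24). Upp1, a uridine phosphorylase gene, was at 326 and 339 CPM with Activin A against 21.9 and 25.9 CPM with Chiron, and Chst15, a chondroitin sulfate sulfotransferase gene, at 111 and 110.3 CPM with Activin A against 3.89 and 4.16 CPM with Chiron. Pga5, which encodes a pepsinogen, was at 18.7 and 19.5 CPM with Activin A against 0.195 and 0.208 CPM with Chiron, and Emb, the adhesion molecule embigin, at 759.6 and 839.6 CPM with Activin A against 111 and 114 CPM with Chiron. The imprinted noncoding RNAs Rian and Meg3, of 1 imprinted domain on chromosome 12, were at 1484 and 1508 CPM with Activin A against 688 and 726 CPM with Chiron and 1054 and 997 CPM with Activin A against 411 and 430.3 CPM with Chiron; both contain small RNA genes on the same strand.

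Among other lower genes, the gene model Gm45889 was at 35.8 and 35.9 CPM with Activin A against 797 and 712 CPM with Chiron and Tmem132c, a membrane protein gene, at 4.89 and 4.34 CPM with Activin A against 146 and 147 CPM with Chiron. Mllt3, a subunit of the super elongation complex, was at 20.1 and 18.9 CPM with Activin A against 228 and 211 CPM with Chiron. Sv2b, a vesicle protein gene, was at 0.311 and 0.581 CPM with Activin A against 53 and 50.9 CPM with Chiron, and Sim1, a bHLH-PAS factor, at 0.222 and 0.0775 CPM with Activin A against 14.5 and 8.29 CPM with Chiron. Hmga2, an architectural chromatin protein gene, was at 102 and 98.7 CPM with Activin A against 581 and 496 CPM with Chiron, Gpc3, a heparan sulfate proteoglycan gene, at 206 and 204 CPM with Activin A against 615 and 569 CPM with Chiron, and Prtg, an immunoglobulin family membrane protein gene, at 378 and 352 CPM with Activin A against 939.6 and 833 CPM with Chiron. Fibronectin, Fn1, which is on the mesenchymal list, was at 544 and 511 CPM with Activin A against 1255 and 1120.5 CPM with Chiron. All 9 had both Activin A libraries below both Chiron libraries. The libraries of the treatments did not overlap in 80.3% of all tested genes, and for genes named by smallest p this was a condition of the choice. The largest difference in mean CPM among genes at least 2-fold lower was in the ribosomal RNA row CT010467.1, at 1014 and 949 CPM with Activin A against 4457 and 690.4 CPM with Chiron; its libraries overlapped, Chiron replicate 1 alone was high, and without that library the log2 fold change was 0.48 in place of -1.46.

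Metabolic genes moved by smaller amounts. All 15 sterol synthesis genes were higher, at a median log2 fold change of 0.53 and a summed level of 4006 and 4070 CPM against 2749 and 2625 CPM. Hmgcs1, which encodes a synthase early in the pathway, was at 846 and 852 CPM with Activin A against 515 and 459.8 CPM with Chiron. Of 19 glycolysis and hypoxia genes 12 were higher, with a median of 0.34. Ldha, lactate dehydrogenase, was at 3069 and 3188 CPM with Activin A against 1644 and 1769.6 CPM with Chiron, and Bnip3, a hypoxia-induced mitophagy gene, at 119.6 and 119 CPM with Activin A against 50.9 and 48 CPM with Chiron. Ndrg1, a stress-responsive gene, was at 61 and 68.4 CPM with Activin A against 5.3 and 6 CPM with Chiron.

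Replication genes were lower in 6 of 8, by small amounts such as -0.24 for Mcm2 and -0.41 for Rrm2 on the log2 scale, and 6 of 8 mitosis genes were not called. The 3 cyclin-dependent kinase inhibitor genes were higher, with Cdkn1c at 76.8 and 75.3 CPM with Activin A against 13.1 and 17.8 CPM with Chiron, Cdkn1b at 79.6 and 84.7 CPM with Activin A against 42.2 and 36.4 CPM with Chiron and Cdkn1a at 287 and 278 CPM with Activin A against 132 and 163 CPM with Chiron. Of 10 p53 targets, a list that also holds Cdkn1a, 5 were higher and 4 lower.

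Markers of other cells that such cultures could hold were low or mixed. Among all tested genes 31.3% were higher and 30.2% lower, and the visceral endoderm counts lie near those shares. Of 16 visceral endoderm genes, of the extraembryonic endoderm that shares genes with definitive endoderm, 5 were higher, 5 lower and 6 not called; 3 were higher without Activin A replicate 2 and 3 lower without Chiron replicate 2. The summed level was 125 and 120 CPM with Activin A and 262 and 303 CPM with Chiron, of which Cited1, also a presomitic gene, made up most with Chiron at 219.8 and 239 CPM. Without Cited1 the direction of the sum turned, to 102 and 98.6 CPM with Activin A and 42.5 and 64.8 CPM with Chiron. Of the 8 secreted products, Apoa1, Apoe and Rbp4 were higher, Trf was lower and 4 were not called, with Apoe, an apolipoprotein gene that other cells also express, at 70.6 and 69.6 CPM with Activin A against 21.7 and 28.1 CPM with Chiron. Afp, the classic product of this tissue, held 3 counts or fewer in each library, and Ttr, Apoa1 and Apoa4 were below 0.5 CPM in each. What part visceral endoderm had in the endoderm genes was not tested. Of 8 tested parietal endoderm genes 3 were higher, 1 of them at least 2-fold, and 5 lower, with a median log2 fold change of -0.94. That list was not low: it summed to 924 and 957 CPM with Activin A and 599 and 594 CPM with Chiron. Of 7 tested neural crest and surface ectoderm genes 2 were higher and 3 lower.

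Of 12 trophoblast genes 9 were tested, 5 were higher (Eomes, Tfap2c, Tead4, Krt7 and Ascl2), 1 was lower (Cdx2) and 3 were not called, with a median log2 fold change of 0.43. Eomes and Cdx2 are also on the lists of mesendoderm and caudal progenitors. Krt7, a keratin gene, was at 5.15 and 5.35 CPM with Activin A against 0.292 and 0.278 CPM with Chiron and Ascl2, a placental bHLH factor, at 1.42 and 1.28 CPM with Activin A against 0.292 and 0.278 CPM with Chiron, while the placental genes Prl3d1 and Tpbpa had no count in the 4 libraries. The globin genes Hba-x and Hbb-y held at most 1 count. Of 13 tested endothelial and blood genes 4 were higher and 4 lower, near the shares of all tested genes (31.3% higher and 30.2% lower). Kdr, a receptor of vascular progenitors, was at 3.6 and 2.75 CPM with Activin A against 1.17 and 0.798 CPM with Chiron. Lmo2, a partner of blood and vessel factors, was at 24.9 and 25.8 CPM with Activin A against 101 and 113 CPM with Chiron. Of 18 tested cardiac genes 8 were higher and 6 lower, with Gata4 and Gata6 the clearest, while the heart factor gene Nkx2-5 and the troponin gene Tnnt2 were below 1 CPM in each library and not called. Without Chiron replicate 2, 3 of the cardiac genes were lower. Of 22 tested neural genes 6 were higher and 10 lower, most of them below 10 CPM: Pax6 was at 0.711 and 0.349 CPM with Activin A against 1.36 and 1.77 CPM with Chiron, Sox1 at 1.155 and 0.736 CPM with Activin A against 2.73 and 2.46 CPM with Chiron and Six3, of the anterior forebrain, at 0.755 and 1.24 CPM with Activin A against 0.0487 and 0.0694 CPM with Chiron. The 2-cell-like markers of the Zscan4 family were below 0.5 CPM in each library. At these levels the folds rest on few counts.

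The difference between treatments at 96 h was not the one at 120 h for many genes. The change with time was tested as the 96 h difference minus the 120 h difference, with edgeR, and 6861 of 17305 genes (39.6%) were called. The treatment difference at 120 h itself was called in 7249 genes (41.9%). Among 14092 protein-coding genes, 3138 were higher and 3573 lower at 120 h. The 120 h counts of each list below are to be read against these. The share among all genes with the same 96 h call is not given here. Of the 10655 genes called at 96 h, 5316 also differed between the times: 1349 were called in the same direction at 120 h, 1168 in the opposite direction, and 2799 were not called at 120 h. The 120 h libraries were shallower than those at 96 h, so for genes at low counts depth and time cannot be told apart.

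Part of the pluripotency genes changed direction. Of the 6 general pluripotency genes higher at 96 h, 5 were lower at 120 h (Pou5f1, Nanog, Tdgf1, Utf1 and L1td1) and Sall4 was higher at both times, while 5 of the 6 lower at 96 h were also lower at 120 h. The naive list had a median log2 fold change of -0.92 at 96 h and -1.73 at 120 h. Pou5f1 at 120 h was at 23 and 26.1 CPM with Activin A against 63.9 and 73.4 CPM with Chiron, a log2 fold change of -1.53 against 2.93 at 96 h. Nanog was at 8.22 and 5.6 CPM with Activin A against 22.5 and 23.2 CPM with Chiron, and Tdgf1 at 9.51 and 11 CPM with Activin A against 21 and 19 CPM with Chiron. These genes were high with Activin A at 96 h, were low at 120 h and then lay below the Chiron libraries, and the change with time was called for each. Pim2, at 18.1 and 16.9 CPM with Activin A against 15.8 and 16.9 CPM with Chiron, and Upp1, at 43.3 and 45.9 CPM with Activin A against 42.1 and 38.3 CPM with Chiron, no longer differed beyond the test at 120 h.

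Of the 10 retinoic acid genes lower at 96 h, 5 were higher at 120 h, among them Aldh1a2, Cyp26a1, Crabp1 and Rarb, 4 were lower and 1 was not called. Of the 19 presomitic and somitic genes lower at 96 h, 13 were also lower at 120 h, 4 were not called and 2 were higher (Aldh1a2 and Tbx18), with a list median of -0.84. Crabp1 was at 210.3 and 215 CPM with Activin A against 57.2 and 61 CPM with Chiron at 120 h, a log2 fold change of 1.80 against -3.78 at 96 h, and Aldh1a2 at 129 and 114 CPM with Activin A against 34.5 and 37.5 CPM with Chiron. Foxc2 was at 103 and 94.9 CPM with Activin A against 87.5 and 91.2 CPM with Chiron and was not called, and Cxcr4 and Fn1 were higher, at 120.4 and 117 CPM with Activin A against 35.9 and 37.3 CPM with Chiron and 629 and 615 CPM with Activin A against 318 and 284 CPM with Chiron. The change with time was called for Crabp1, Aldh1a2, Foxc2, Cxcr4 and Fn1. The Activin A libraries of 96 h held Crabp1 at 25.1 and 23.3 CPM and Foxc2 at 0.533 and 0.465 CPM. Both genes were thus higher in the Activin A libraries of 120 h, Foxc2 by a far larger factor than Crabp1. Of the 28 Hox genes lower at 96 h, 23 were also lower at 120 h, Hoxd1 was higher and 4 were not called. Among protein-coding genes 3573 of 14092 were lower at 120 h. At 120 h Hoxb9 was at 84.2 and 78.7 CPM with Activin A against 238 and 235 CPM with Chiron. Hoxc8 was at 39.8 and 40.8 CPM with Activin A against 68.2 and 74.5 CPM with Chiron. In 28 of the 34 tested Hox genes the change with time was called, against 39.6% of all tested genes.

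The interferon response differed more between the treatments at 96 h than at 120 h. Its summed level at 120 h was 426 and 436 CPM with Activin A and 325 and 308 CPM with Chiron, and the median log2 fold change was 0.88. Of the 52 tested genes 30 had a called change with time, where 39.6% of all genes did. At 120 h Irgm1 was at 5.62 and 5.82 CPM with Activin A against 0.922 and 1.27 CPM with Chiron. Of the list, 20 genes were higher at 120 h, 18 of which had been higher at 96 h. Among protein-coding genes 3138 of 14092 were higher at 120 h, so part of the interferon difference was still there. The list held 2 lower genes at 120 h, among them Ifit3 on at most 4 counts in a library. Ifit1 held 3 counts or fewer in every library at 120 h. Eomes, Foxa2 and Sox17 kept their direction, with Eomes higher by 5.66, Foxa2 by 6.52 and Sox17 by 5.67 on the log2 scale at 120 h.

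**Figure D4:**
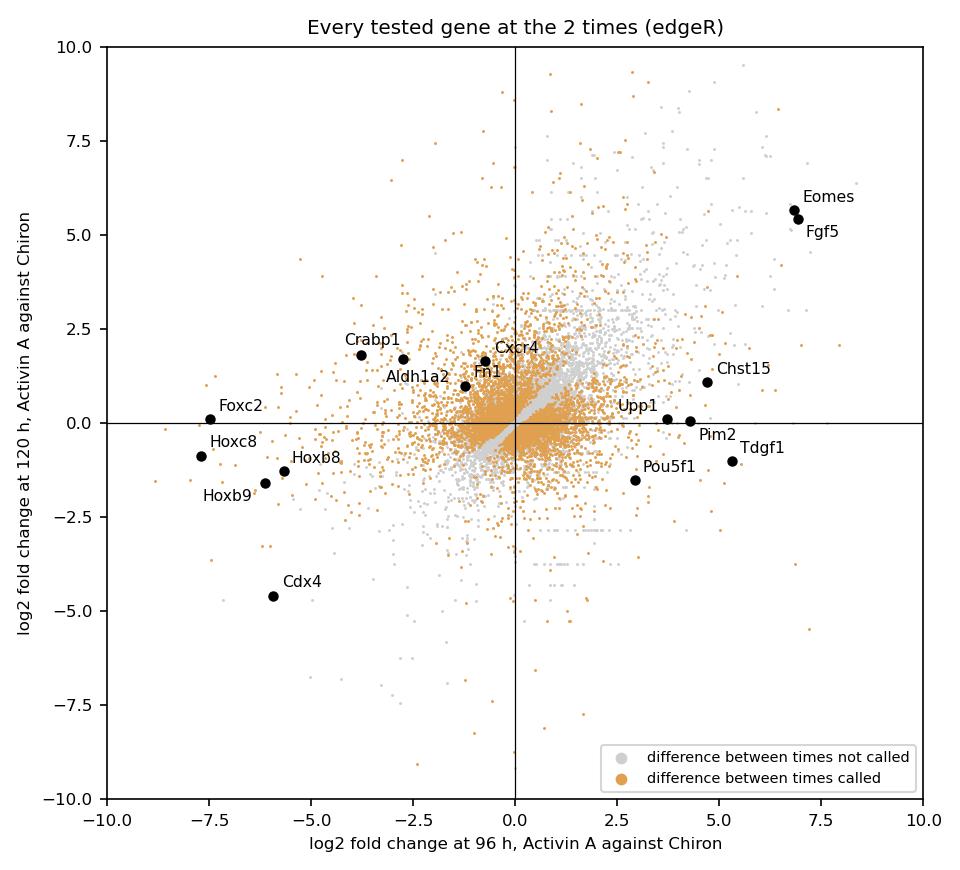
Log2 fold change of Activin A against Chiron for each tested gene at 96 h (horizontal) and 120 h (vertical); orange points are the 6861 genes whose difference between times was called, and labelled points are genes named in the text. Tdgf1 and Pou5f1 lie right of 0 and below it, Crabp1 lies left of 0 and above it, and Eomes and Fgf5 lie far right and high.

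Genes annotated as pseudogenes were mostly higher at 96 h. Of 1512 tested pseudogenes 931 were higher and 76 lower, so that 92.5% of their calls were higher, against 47.1% of the calls in 14092 protein-coding genes. Their median log2 fold change was 0.84 at 96 h and 0.09 at 120 h, and that of protein-coding genes was -0.03 at both times. Pseudogenes took 0.947 and 0.986% of counts with Activin A and 0.737 and 0.792% with Chiron. Reads of a pseudogene can also match its parent gene, and how such reads were counted is not given in the sources used here, so these counts are uncertain. Of the 2251 genes at least 2-fold higher, 571 were pseudogenes and 1536 protein coding. Among protein-coding genes alone, 4274 were higher and 4809 lower.

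**Figure D5:**
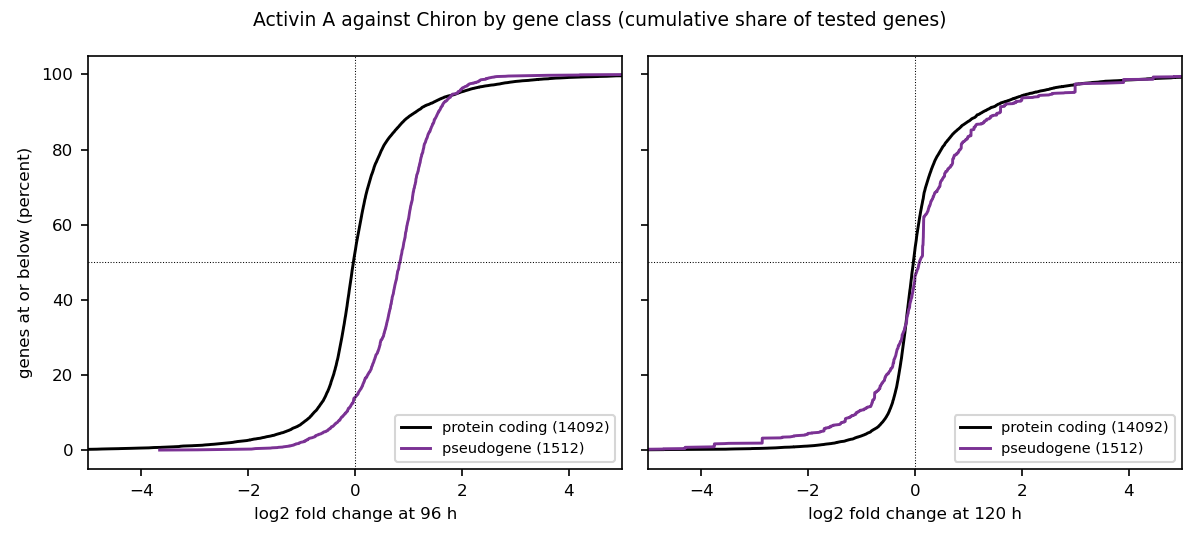
Cumulative share of tested genes (percent) by log2 fold change of Activin A against Chiron, for protein-coding genes and pseudogenes, at 96 h and 120 h. The pseudogene curve is displaced to the right at 96 h, with a median of 0.84, and lies near that of protein-coding genes at 120 h, with a median of 0.09.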

How the data were processed

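Whole-number counts per Ensembl gene and FPKM values, which divide fragments by gene length and sequencing depth, were used as deposited by the authors. Per the submitters' processing notes, the tools were cutadapt 1.16, STAR and Cufflinks 2.2.1 with the mm10 build. The counting tool, its strand setting and its annotation are not given in the sources used here, so overlapping, antisense and near-identical genes are reported as uncertain. Per the labels' protocols, a stranded kit was used on poly(A) RNA.

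Samples were grouped by their titles. The 8 wild-type gastruloid libraries, 2 in each of 4 groups, were fitted together with edgeR 4.0.16 (R 4.3.3): filterByExpr, TMM scaling, 1 coefficient per group and quasi-likelihood tests, with Benjamini-Hochberg adjustment over 17305 genes and calls at an adjusted p under 0.05. The SE is that implied by the test. CPM is the count per 1000000 counts of the library. A group at 3 counts or fewer in each library is at the floor (0.104 to 0.329 CPM), fold changes against it are lower bounds, and floors cover counting error only. Levels between genes are compared as FPKM. GENCODE M21 gave positions and classes for 17286 tested genes, and RefSeq (GRCm38.p6) gave promoters. In 10 simulated data sets of 17305 genes, 200 genes with a mean of at least 1 CPM were changed, with the spread that edgeR had fitted. Of these changes, 83% of 1.5-fold, 96.8% of 2-fold higher, 92.2% of 2-fold lower and 100% of 4-fold ones were recovered. On average 7.63% of calls there were false. In the data most genes were called and some lie below 1 CPM, so these rates need not hold there.

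The comparison and the gene lists were chosen with earlier results of these data known, and the interferon list after its leading genes were seen. Outside the lists, the named genes are the 8 in each direction with the smallest p, the largest log2 fold change and the largest CPM difference, and the 5 in each direction with the smallest p for the change with time. Some of these are left out of the text. Alternatives were other scalings, filters, tests (DESeq2 1.42.0, limma 3.58.1 on log2 FPKM), a replicate block, only the 96 h libraries and each library left out. Offsets for GC content and length, protein-coding genes alone, no ribosomal RNA row, and thinned counts were added after the data had been seen. The mES, endoderm and Hox-/- libraries were not analysed here, and some genes are not reported here.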

Additional observations from a re-analysis of the deposited data

Results flagged for a closer look

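These results are listed because the treatment difference at 96 h differed from that at 120 h by a test of the difference itself, edgeR's contrast of the 2 log2 fold changes, which called 6861 genes. The values below are the 96 h log2 fold change minus the 120 h log2 fold change for 10 genes, 5 per direction, chosen by smallest p. Toward Activin A at 96 h these were the co-receptor gene Tdgf1 with 6.34, the pluripotency factor gene Pou5f1 with 4.45, the kinase gene Pim2 with 4.23, the uridine phosphorylase gene Upp1 with 3.63 and the sulfotransferase gene Chst15 with 3.62. Toward Chiron at 96 h these were Hoxc8 with -6.83, the retinoid binding protein gene Crabp1 with -5.58, Hoxb9 with -4.55, Hoxb8 with -4.40 and the noncoding Hoxaas3 with -4.18. Tdgf1, Pou5f1 and Crabp1 had called differences of opposite sign at the 2 times, the 4 Hox genes were lower at both, Chst15 was higher at both, and Pim2 and Upp1 were not called at 120 h. Library depth fell with time as well, and its part in these results was not tested gene by gene.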

How the results depend on the processing

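The count of 10655 genes called at 96 h fell to 7040 when FPKM was tested with limma at a pseudocount of 1 and to 6670 at a pseudocount of 0.1, fits of another unit with fewer genes tested, and to 8405 with counts thinned to the smallest library total. DESeq2 called 7584, and leaving out each library in turn gave 8513 to 11062. The count of genes that changed with time, 6861, ranged over 5492 to 7170 with a library left out, and was 4776 with DESeq2 and 5901 with thinned counts. Library totals in place of TMM moved the higher share of 96 h calls from 50.9 to 58.2%, with the median of all genes shifted by 0.062 on the log2 scale. The replicate numbers are not said to pair the samples. Deviations of same-numbered libraries correlated at -0.044 to 0.091, which cannot show whether such libraries were made together. With the replicate block 10725 and 6937 genes were called. Of 188 genes given with values, 177 kept their call and sign under every alternative that could test them. The ribosomal RNA row CT010467.1 ranged from -2.22 to 0.48 with a library left out and was not called by DESeq2 or in any of the FPKM fits. Nkx1-2 and Hoxd13 were not called by DESeq2, and Gdf3, Ifit2, Kdr, Nkx1-2, Smad7 and Sox1 were not called in at least 1 of the FPKM fits. Hoxb1 was called lower in 4 alternatives. Of genes not called, B2m reversed to -0.0847 with offsets for GC content and length, and Hnf4a ranged from -0.0549 to 2.17 with a library left out. Medians of mixed lists changed sign: neural genes to 0.04 with at least 10 counts in every library; cardiac genes to -0.08 with no filter, -0.10 with DESeq2, -0.01 with limma without a filter and -0.60 when thinned, and -0.56 to 0.90 with a library left out; visceral endoderm genes to -0.02 with limma without a filter, -0.83 with only the 96 h libraries, and -0.80 to 1.07 with a library left out. With at least 10 counts in every library, fewer genes could be tested and 20 interferon and 4 node genes were called higher. For these reversals the cause was not tested. With 2 libraries per group, small differences of low genes are limited by depth.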
